A study of Mus musculus with 11 samples.

Results

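The 10 genes described here encode proteins of the Polycomb repressive complexes in mouse embryonic stem cells (ESCs): the PRC2 core genes Ezh2, Eed, Suz12, Rbbp4 and Rbbp7, the PRC2 accessory genes Epop, Mtf2, Phf19 and Jarid2, and the Polycomb gene Scml2. They are 10 of the 54838 genes counted, found by symbol in the GENCODE annotation of GRCm38, and all 10 were among the 16073 genes expressed highly enough to be tested. Epop and Rbbp7 were picked for their response to siRNAs against CMTR1, and Scml2 was added with its own values known. For these 3 genes, levels and fold changes are therefore given as a description without a p-value. Their SEs and intervals do not allow for this choice and are not read as a test.

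PRC2 is the methyltransferase complex that places methyl groups on lysine 27 of histone H3, a mark of repressed developmental genes in ESCs. EZH2 is its catalytic subunit, EED reads the mark and SUZ12 holds the complex together, while the closely related WD-repeat proteins RBBP4 and RBBP7 bind histones and also serve in other chromatin complexes. Accessory proteins divide PRC2 into one class with a PCL protein such as MTF2 or PHF19, which EPOP can join, and another with JARID2 and AEBP2. SCML2 belongs to the separate PRC1 family, whose E3 ligases ubiquitylate histone H2A.

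RNA was sequenced from E14 cells, a mouse ESC line grown on gelatin with LIF and knockout serum replacement, 36 h after transfection of siRNA. The groups were a scramble control siRNA (3 libraries), CMTR1 siRNA 1 (4 libraries) and CMTR1 siRNA 2 (4 libraries), and CMTR1 is the enzyme that methylates the ribose of the first transcribed nucleotide of the mRNA cap. Total RNA was depleted of rRNA and made into directional libraries, and all groups came from the same line without any other genetic change given. The methods call the sequenced samples biological replicates but give fewer per group than the 4 libraries labelled for each CMTR1 siRNA, and the labels name no culture. All labelled libraries were counted as replicates, and the spread behind the p-values may in part be technical. In bulk RNA, fewer cells that express a gene and less RNA per cell cannot be told apart.

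Gene counts per library ran from 6738478 to 8382318, and levels are given as counts scaled to the library's total gene count (CPM). Cmtr1, the targeted gene, was at 21.3, 21.7 and 17.9 CPM in control, at 21.1, 21.3, 16.2 and 18.04 CPM with siRNA 1 and at 15.6, 16.8, 16.4 and 19.5 CPM with siRNA 2. Both siRNA groups overlapped control, and the log2 fold changes of −0.088 (adjusted p = 0.743) and −0.25 (adjusted p = 0.144) did not pass the threshold. The siRNA groups are therefore named by their labels, and the depletion of CMTR1 protein was not measured in these libraries. The paper lists both siRNAs for western blots and describes CMTR1 as rapidly reduced after their transfection. Gm26917 alone held 4.86 to 6.34% of each library. TMM scaling factors were 0.986 to 0.991 in control, 0.996 to 1.01 with siRNA 1 and 0.994 to 1.01 with siRNA 2. Every control factor was below every siRNA factor, so this scaling differed between the groups compared.

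Rbbp7 lies on the X chromosome (chrX:162760402-162779092, plus strand) and Rbbp4 on chromosome 4 (chr4:129307100-129335370, minus strand). Their coding sequences are each 1275 nt long and, in an alignment of 1272 positions, 995 (78.2%) were identical. The stretch of 60 nt with the most matches is shown because reads of 75 nt have to separate the pair, and the 6 positions that differ are in capitals (GENCODE transcripts, coding positions 1100 to 1159 of Rbbp4 and 1097 to 1156 of Rbbp7).
Rbbp4: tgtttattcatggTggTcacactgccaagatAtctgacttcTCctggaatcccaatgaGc
Rbbp7: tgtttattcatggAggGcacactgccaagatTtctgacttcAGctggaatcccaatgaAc
The longest identical run in the whole coding alignment was 20 nt. No 75-nt word of Rbbp4 was found in another gene, and 107 of the 2979 words of Rbbp7 (3.59%) were shared with Gm6382, which had 0 to 3 reads per library. Rbbp7 also overlaps Txlng by 174 nt on the opposite strand, and the sources do not state whether reads were counted by strand.

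The promoter windows of Rbbp7, Rbbp4 and Scml2 are printed. Rbbp7 was higher than control with both siRNAs and Scml2 with siRNA 2, and Rbbp4 is the paralogue of Rbbp7. CMTR1 acts on the ribose of the first transcribed nucleotide. Any link between the windows and the fold changes was not tested. Each window runs from 250 bases before to 50 bases after the RefSeq start (GRCm38.p6), 5′ to 3′ along the gene. The motifs CCAAT and GGGCGG are in capitals wherever they were found on either strand, that is as CCAAT or ATTGG and as GGGCGG or CCGCCC.
Rbbp7, chrX:162760122-162760421, plus strand: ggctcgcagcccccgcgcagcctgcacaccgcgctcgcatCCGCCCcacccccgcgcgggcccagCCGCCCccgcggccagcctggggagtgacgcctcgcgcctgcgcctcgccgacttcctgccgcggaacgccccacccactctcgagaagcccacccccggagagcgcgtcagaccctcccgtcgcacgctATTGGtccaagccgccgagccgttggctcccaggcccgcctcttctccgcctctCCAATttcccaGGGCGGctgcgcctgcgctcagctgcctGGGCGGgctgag
Rbbp4, chr4:129335321-129335620, minus strand: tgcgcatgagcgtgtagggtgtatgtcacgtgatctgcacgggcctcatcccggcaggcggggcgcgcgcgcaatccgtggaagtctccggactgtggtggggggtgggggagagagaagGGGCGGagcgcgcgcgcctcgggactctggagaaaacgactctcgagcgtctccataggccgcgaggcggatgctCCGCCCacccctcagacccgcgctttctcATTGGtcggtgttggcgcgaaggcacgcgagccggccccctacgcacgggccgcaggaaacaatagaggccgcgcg
Scml2, chrX:161162500-161162799, plus strand: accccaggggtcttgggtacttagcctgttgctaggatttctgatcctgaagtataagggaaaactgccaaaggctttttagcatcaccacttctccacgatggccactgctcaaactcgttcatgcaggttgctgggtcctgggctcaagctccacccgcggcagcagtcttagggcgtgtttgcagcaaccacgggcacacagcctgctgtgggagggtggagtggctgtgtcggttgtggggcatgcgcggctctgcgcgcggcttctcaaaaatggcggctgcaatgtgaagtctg
The Rbbp7 window held CCAAT 2 times and GGGCGG 4 times, with the start at a C, 75.7% GC and 38 CpG dinucleotides. This RefSeq start lies upstream of the GENCODE start of Rbbp7 (chrX:162760402), so its start base depends on the annotation used. In the Rbbp4 window CCAAT occurred 1 time and GGGCGG 2 times, the start base was G, and there were 39 CpG dinucleotides at 68.7% GC. The Scml2 window, which lies inside the longer GENCODE gene (chrX:161117193-161258213, plus strand), held neither motif, with 57.3% GC and 13 CpG dinucleotides.

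RefSeq held 11 windows for 9 of the 10 genes, all but Epop, with more than 1 window for Mtf2 and for Jarid2. CCAAT was in 8 of these 11 windows, against 37.4% of all 32851 windows of the same length, and GGGCGG was in 7 of 11, against 35.7%. TATAAA (13.6% of all windows), TTTCGCG (0.849%), TTTGGCG (1.56%) and CACGTG (7.15%), searched on both strands like the others, were each in 1 of 11. The median over all windows was 52.7% GC and 7 CpG dinucleotides. The full set of windows was not matched to the 11 for CpG content or expression, so nothing is read from these shares. These matches describe the letters in the windows and are not binding sites.

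Rbbp7, a histone chaperone of the PRC2 core, was the core gene with the higher level in every siRNA library. It was at 204, 189 and 186 CPM in control. With siRNA 1 it was at 239, 250.4, 271 and 269.6 CPM, and with siRNA 2 at 282, 277, 250.2 and 273 CPM. Every library of either CMTR1 siRNA was above every control library, from 1380 to 2322 reads per library. Means were 193 ± 9.84 CPM (SD, n = 3), 258 ± 15.4 CPM (n = 4) and 270.3 ± 13.9 CPM (n = 4). For siRNA 1 the log2 fold change came to 0.42 (SE 0.051, 95% interval 0.32 to 0.52), a level 33.4% higher. For siRNA 2 it came to 0.49 (SE 0.051, 0.39 to 0.59), or 40.0% higher, and the siRNA 2 and siRNA 1 libraries differed by 0.069 (SE 0.046, interval −0.022 to 0.16).

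Rbbp4, its paralogue and the alternative subunit at the same place in PRC2, was not called with either siRNA. Control libraries held 434, 444 and 421 CPM, siRNA 1 libraries 406, 405, 430.4 and 437 CPM, and siRNA 2 libraries 459, 433, 408 and 437 CPM. The ranges overlapped in both comparisons. Against control, siRNA 1 gave −0.046 on the log2 scale (SE 0.045, interval −0.13 to 0.042, adjusted p = 0.675). The value for siRNA 2 was 0.0042 (SE 0.045, interval −0.083 to 0.092, adjusted p = 0.971). The sign of the siRNA 2 value turned under other scalings, to −0.020 with TMM factors. Adjusted p-values are Benjamini-Hochberg FDRs from edgeR's quasi-likelihood test over all 16073 genes, and a gene was called at an FDR of at most 0.05.

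Within a library, the ratio of Rbbp7 to Rbbp4, each per kilobase of exon, does not depend on the scaling of the library. Control libraries had ratios of 1.42, 1.28 and 1.33, the siRNA 1 libraries of 1.77, 1.86, 1.89 and 1.85 and the siRNA 2 libraries of 1.85, 1.92, 1.84 and 1.87. Each library of a CMTR1 siRNA had a ratio above every control library, and the siRNA groups overlapped each other. The mean ratio was 1.34 ± 0.0681 (SD, n = 3) in control, 1.85 ± 0.0508 (n = 4) with siRNA 1 and 1.87 ± 0.0375 (n = 4) with siRNA 2. Its absolute size depends on the length used: per kilobase of the longest coding transcript, which was added as an alternative after the data were seen, the means were 0.876, 1.21 and 1.22. The plot of the ratio by library shows the same separation.

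**Figure D1:**
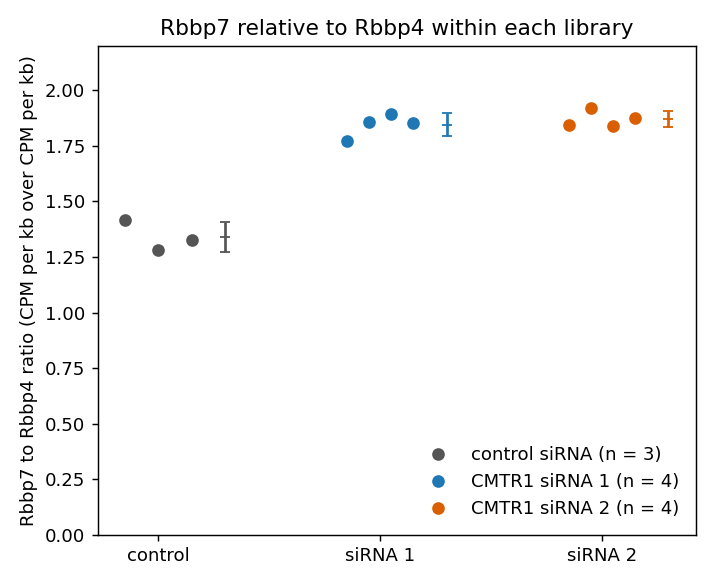
The ratio of Rbbp7 to Rbbp4 (CPM per kb of union exon length over the same for Rbbp4) is plotted for each library, with the mean and SD of each group beside the points. The 3 control libraries sit between 1.28 and 1.42 and the 8 CMTR1 siRNA libraries between 1.77 and 1.92.

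Epop, which joins the PCL class of PRC2 and bridges it to elongin, was lower with both siRNAs, and by a larger amount with siRNA 1. It is a gene of 1 exon (2314 nt; chr11:97627389-97629702, minus strand), overlaps no other annotated exon and shares no 75-nt word with another gene. The control libraries held 143, 162 and 161 CPM. With siRNA 1 the level was 112, 105, 116 and 118 CPM, and with siRNA 2 it was 131, 140.4, 125 and 133 CPM. All siRNA libraries were below all control libraries, and all siRNA 1 libraries were below all siRNA 2 libraries, on 752 to 1312 reads per library. The group means were 155 ± 10.5 CPM (SD, n = 3), 113 ± 5.96 CPM (n = 4) and 132 ± 6.26 CPM (n = 4). On the log2 scale this is a change of −0.46 for siRNA 1 (SE 0.055, interval −0.57 to −0.35) and of −0.23 for siRNA 2 (SE 0.054, interval −0.33 to −0.12). As a fold, siRNA 1 libraries held 0.726 and siRNA 2 libraries 0.854 of the control level. The siRNA 2 libraries were higher than the siRNA 1 libraries by 0.23 on the log2 scale (SE 0.052, interval 0.13 to 0.34).

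Suz12, the scaffold of PRC2, was called lower with siRNA 2 alone, with no difference called between the siRNAs. Control libraries were at 267, 283 and 270.3 CPM, siRNA 1 libraries at 221, 239.5, 262 and 258 CPM, and siRNA 2 libraries at 249, 218, 239.6 and 259.8 CPM. All 8 siRNA libraries lay below the lowest control library. For siRNA 2 the log2 fold change of −0.18 passed (SE 0.053, interval −0.28 to −0.075, adjusted p = 0.0245). For siRNA 1 it was −0.16 (SE 0.053, interval −0.26 to −0.051, adjusted p = 0.0856). Between the siRNAs it was −0.024 (interval −0.12 to 0.073, adjusted p = 0.840). Suz12 was not called with siRNA 2 when control replicate 2 (−0.15), control replicate 3 (−0.19) or siRNA 2 replicate 2 (−0.13) was left out. With siRNA 1 it was called when siRNA 1 replicate 3 was left out (−0.19), in a fit of only the compared groups (−0.16, adjusted p = 0.0456) and with edgeR's exactTest (−0.16, adjusted p = 0.0442).

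Ezh2, the catalytic subunit, was at 176, 172 and 167 CPM in control. With siRNA 1 it was at 155, 173, 165 and 166 CPM, 3 of the 4 below the lowest control library, and with siRNA 2 at 154, 157, 152 and 161 CPM, below every control library. For siRNA 1 this gave −0.058 on the log2 scale (SE 0.049, interval −0.15 to 0.038, adjusted p = 0.604). For siRNA 2 it gave −0.14 (SE 0.049, interval −0.23 to −0.040, adjusted p = 0.0687). The siRNA 2 value passed the threshold with TMM factors (−0.16, adjusted p = 0.0283) and with DESeq2 (−0.16, adjusted p = 0.0251). Eed, the subunit that reads the mark, was at 192, 189 and 174 CPM in control, at 156, 164, 181 and 171 CPM with siRNA 1 and at 182, 174, 171 and 197 CPM with siRNA 2. Its groups overlapped, with log2 fold changes of −0.14 (SE 0.054, adjusted p = 0.139) and −0.032 (SE 0.053, adjusted p = 0.780).

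The other accessory genes among the 10, Mtf2, Phf19 and Jarid2, stayed above the FDR threshold with either siRNA. Mtf2, a PCL protein that binds CpG-rich DNA, was at 314, 334 and 304 CPM in control, at 261, 277, 321 and 299 CPM with siRNA 1 and at 316, 295, 305 and 349 CPM with siRNA 2. These ranges overlapped, and the log2 fold changes were −0.13 (SE 0.055, adjusted p = 0.184) and −0.0045 (SE 0.054, adjusted p = 0.975). Without siRNA 1 replicate 3, Mtf2 was called lower with siRNA 1 (−0.19) and higher with siRNA 2 than with siRNA 1 (0.18). Phf19, the other PCL gene, was at 13.8, 16.4 and 18.04 CPM in control, at 13.4, 11.7, 17.3 and 16.7 CPM with siRNA 1 and at 10.7, 16.0, 12.8 and 15.2 CPM with siRNA 2. On 75 to 134 reads per library its values overlapped, and the log2 fold changes of −0.12 (SE 0.13, adjusted p = 0.702) and −0.22 (SE 0.13, adjusted p = 0.310) had wide intervals, of −0.38 to 0.13 and −0.48 to 0.033. Jarid2, the PRC2 cofactor that marks the other class, had the smallest SE of the 10 genes in each comparison. It was at 687, 699.7 and 678 CPM in control, at 666, 663, 675 and 678 CPM with siRNA 1 and at 689, 684, 677 and 699 CPM with siRNA 2, and the intervals of its log2 fold changes were −0.12 to 0.040 and −0.079 to 0.076.

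Scml2, the PRC1 protein, was higher with siRNA 2 and within the control range with siRNA 1. The control libraries held 10.2, 8.76 and 7.13 CPM. With siRNA 1 the values were 7.72, 8.10, 9.11 and 7.89 CPM, and with siRNA 2 they were 16.8, 16.3, 16.2 and 15.1 CPM. All siRNA 2 libraries were above all other libraries, on 52 to 137 reads per library over the 11 libraries. The siRNA 2 value was 0.88 on the log2 scale (SE 0.12, interval 0.64 to 1.13), a level 1.84-fold that of control. The siRNA 1 value was −0.084 (SE 0.14, interval −0.36 to 0.19). The siRNA 2 and siRNA 1 libraries differed by 0.97 (SE 0.12, interval 0.74 to 1.20). Without control replicate 1 the sign of the siRNA 1 value turned, to 0.043. The levels of the 10 genes are shown by library in the plot of CPM, and the fold changes with their intervals in the plot of both siRNAs.

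**Figure D2:**
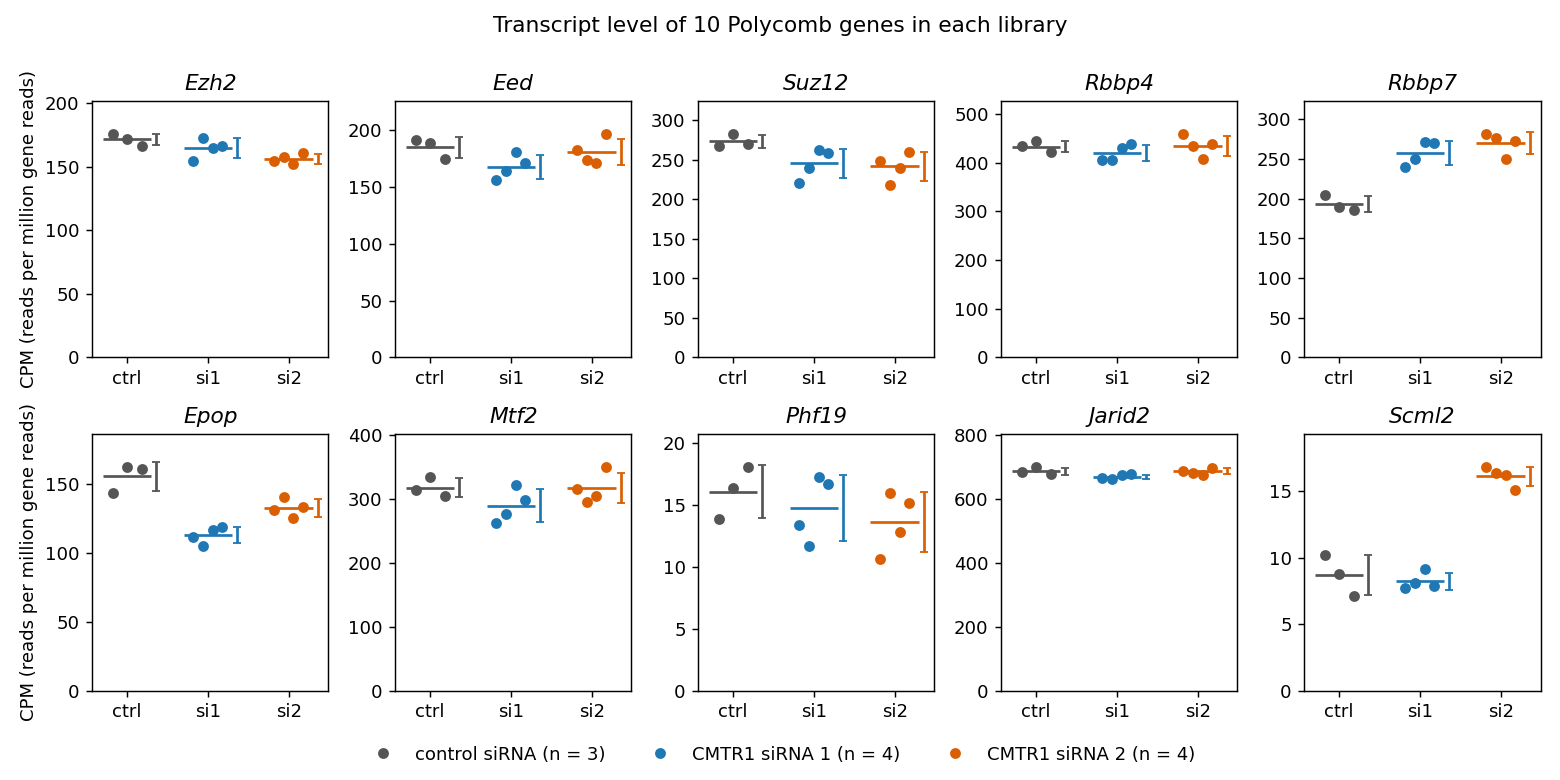
Each panel plots 1 gene in CPM on its own axis from 0, with a point per library, the group mean as a line and its SD as a bar (control siRNA n = 3, CMTR1 siRNA 1 and siRNA 2 n = 4 each). Rbbp7 is higher in all 8 CMTR1 siRNA libraries (239 to 282 CPM against 186 to 204), Epop is lower in all 8 (105 to 140.4 CPM against 143 to 162), and Scml2 is higher with siRNA 2 (15.1 to 16.8 CPM).

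**Figure D3:**
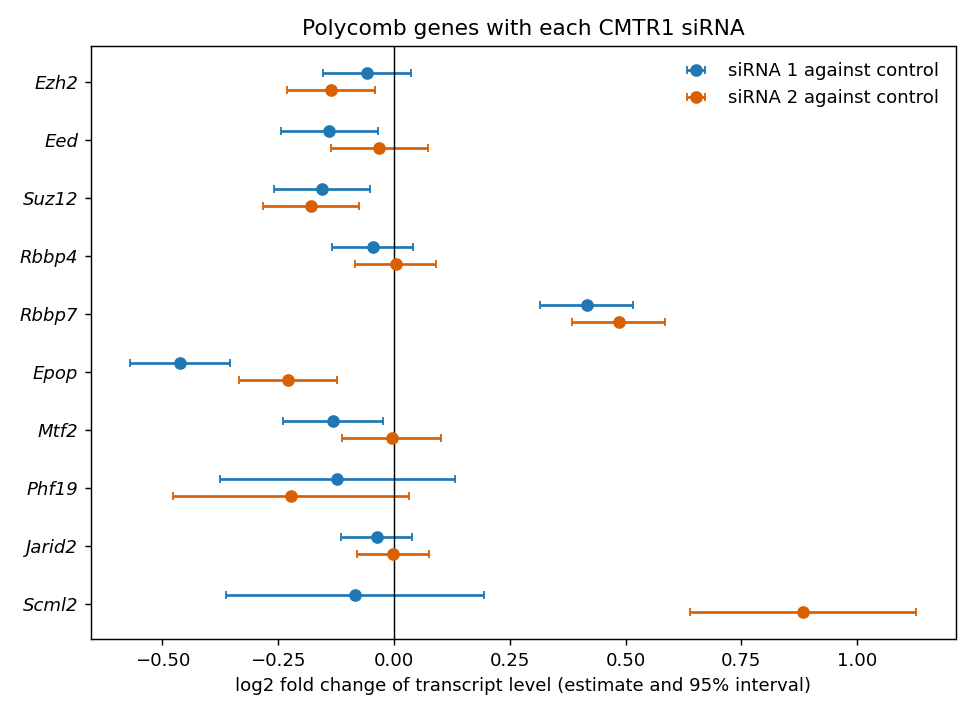
The log2 fold change against control is shown for each of the 10 genes and each CMTR1 siRNA, with its 95% interval. The Rbbp7 estimates are 0.42 and 0.49, those of Epop −0.46 and −0.23, and those of Scml2 −0.084 and 0.88.

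Counted over the group, 2 of the 10 genes were called with siRNA 1, where 4.67% of all genes tested were (2.71% called higher and 1.97% called lower), and 4 of 10 with siRNA 2, where 9.72% of all genes were (6.17% higher and 3.55% lower). Between siRNA 2 and siRNA 1, 2 of 10 were called, with 7.44% of all genes called (4.49% higher and 2.96% lower). Epop, Rbbp7 and Scml2 are among these counts and were chosen on their values, so nothing is read from the shares. The median log2 fold change of the 10 genes was −0.10 with siRNA 1 and −0.018 with siRNA 2, and over all genes tested it was 0.024 and 0.029. Both comparisons share the 3 control libraries. The balance of directions over all genes depended on scaling: with siRNA 1, 435 genes were called higher and 316 lower, but 346 and 400 with TMM factors and 199 and 322 with DESeq2. With siRNA 2, 991 were higher and 571 lower, against 728 and 734 with TMM factors and 409 and 549 with DESeq2. The signs for Epop, Rbbp7 and Suz12 with both siRNAs and for Scml2 with siRNA 2 were the same under these scalings.

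Per kilobase of union exon length, the control levels fell into an order led by Jarid2 at 70.8 ± 1.12 CPM per kb (SD, n = 3), Epop at 67.1 ± 4.54 and Rbbp7 at 66.4 ± 3.38 CPM per kb. Mtf2 (55.7), Suz12 (55.3), Rbbp4 (49.5) and Eed (48.3 CPM per kb) came next, followed by Ezh2 (25.7), Phf19 (3.19) and Scml2 (1.43 CPM per kb). The control ranges of Jarid2 and Epop, of Epop and Rbbp7, of Mtf2 and Suz12 and of Rbbp4 and Eed overlapped, and those of the other neighbours in the order did not. With siRNA 1, Rbbp7 was first at 88.6 ± 5.31 CPM per kb and Epop ranked 5 at 48.7 ± 2.58 CPM per kb (n = 4). With siRNA 2, Rbbp7 was again first at 92.9 ± 4.78 CPM per kb, and Epop ranked 3 at 57.2 ± 2.70 CPM per kb (n = 4). The order rests on the length used, since 4 of the 10 genes kept their rank when the longest transcript, or the longest coding transcript, set the length, and 6 of 10 did when control replicate 2 was left out.

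The other Polycomb genes were taken from lists of PRC2, PRC1, PR-DUB and counteracting enzymes, 72 genes without the 10, of which 70 were tested (Scml4 and L3mbtl4 were too low). With siRNA 1, 6 of the 70 were called (8.57%, against 4.67% of all genes), 3 higher and 3 lower. That balance held for total counts as library sizes, and was 1 higher and 3 lower with TMM factors and 1 higher and 4 lower with DESeq2. With siRNA 2, 11 were called (15.7%, against 9.72% of all genes), 7 higher and 4 lower. With DESeq2 8 were, 4 in each direction. Between the siRNAs 6 were called (8.57%, against 7.44%), 5 higher and 1 lower with siRNA 2. The median log2 fold change of the 70 was −0.0096 with siRNA 1 and 0.030 with siRNA 2, close to the medians over all genes.

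Among the other PRC2 genes, Aebp2, the partner of JARID2, fell with siRNA 2, from 199 ± 13.7 to 175 ± 6.27 CPM (log2 fold change −0.19, adjusted p = 0.0116), and had −0.11 with siRNA 1 (adjusted p = 0.246). Ezh1, the second catalytic subunit, had −0.063 with siRNA 1 (adjusted p = 0.743) and −0.14 with siRNA 2 (adjusted p = 0.252). The PCL gene Phf1 had −0.11 with siRNA 1 (adjusted p = 0.693) and −0.17 with siRNA 2 (adjusted p = 0.368). Elob and Eloc, the elongin partners of EPOP, had log2 fold changes between −0.090 and 0.064, and neither was called.

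In canonical PRC1, the chromodomain genes went different ways. Cbx7, the main CBX gene of ESCs, fell with siRNA 2 from 292 ± 12.1 to 250.01 ± 14.3 CPM (−0.22, adjusted p = 0.00123), and Cbx6 fell with both siRNAs (−0.24, adjusted p = 0.00736, and −0.37, adjusted p = 1.15e-05). Cbx2, another reader of the mark, rose with siRNA 2 from 41.5 ± 1.08 to 51.0 ± 2.51 CPM (0.30, adjusted p = 0.00299). The E3 ligase gene Rnf2 rose with siRNA 2 (0.21, adjusted p = 0.0198) and was higher there than with siRNA 1 (0.26, adjusted p = 0.00168). Phc2, a polyhomeotic gene, rose with siRNA 1 (0.26, adjusted p = 0.0329) and siRNA 2 (0.27, adjusted p = 0.0131).

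In variant PRC1, E2f6, a DNA-binding repressor, rose with siRNA 2 from 40.4 ± 1.21 to 52.9 ± 4.97 CPM (0.39, adjusted p = 0.000231), as did Bcorl1 (0.33, adjusted p = 0.00415). Dcaf7 fell with siRNA 1 (−0.24, adjusted p = 0.00665), and Pcgf6 differed between the siRNAs (0.25 higher with siRNA 2, adjusted p = 0.00732) without being called against control. In the list of PR-DUB and MBT proteins, Asxl3 rose from 12.5 ± 2.02 CPM to 17.3 ± 2.32 and 21.2 ± 1.07 CPM (0.45, adjusted p = 0.0158, and 0.76, adjusted p = 9.33e-06). Sfmbt2, an MBT protein, fell with both (−0.39, adjusted p = 0.000108, and −0.22, adjusted p = 0.0252). Ogt, the O-GlcNAc transferase, rose with siRNA 1 (0.17, adjusted p = 0.0255), and Mysm1, an H2A deubiquitinase, rose with siRNA 2 (0.17, adjusted p = 0.0357). The plot of the Polycomb lists shows where these genes fall among the members that were not called.

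**Figure D4:**
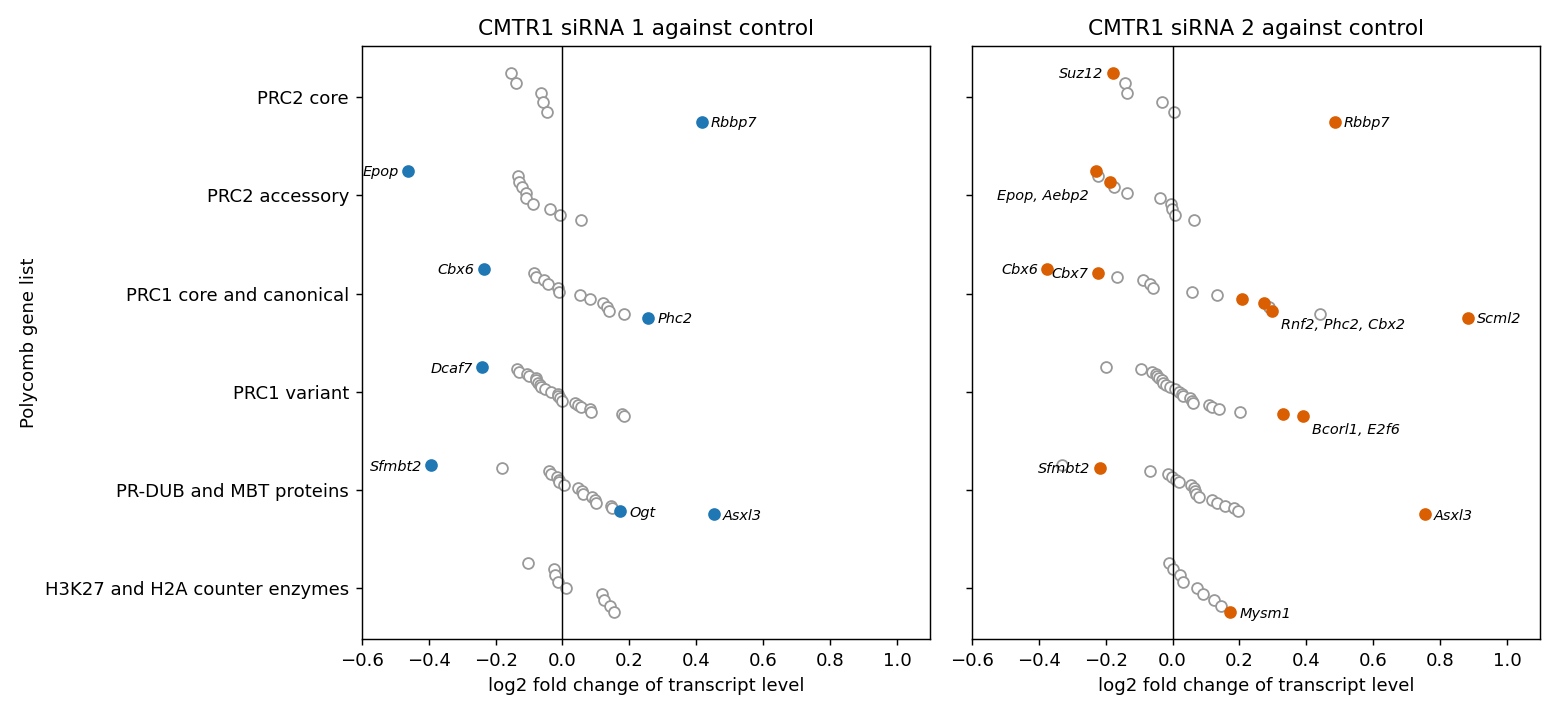
Each circle is a gene tested in 1 of 6 Polycomb lists (the 10 genes included), placed by its log2 fold change with CMTR1 siRNA 1 (left) or siRNA 2 (right) against control, and filled and named where it was called. Apart from Epop, Rbbp7 and Scml2, the filled circles lie between −0.39 and 0.76, and most genes of each list are open circles around 0.

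Several of these calls rested on the scaling or on single libraries. Phc2 was not called with siRNA 1 under TMM factors (0.24, adjusted p = 0.0518) or DESeq2 (0.23, adjusted p = 0.107), nor with siRNA 2 under DESeq2 (0.24, adjusted p = 0.0588). Ogt was not called with TMM factors (0.15, adjusted p = 0.0543) or DESeq2 (0.15, adjusted p = 0.0619). Mysm1 was not called with TMM factors (0.15, adjusted p = 0.0828), DESeq2 (0.14, adjusted p = 0.143) or no filter on low counts (0.17, adjusted p = 0.0590), and Rnf2 with siRNA 2 was not called with DESeq2 (0.18, adjusted p = 0.0916). With siRNA 1, the count of 6 became 2 without control replicate 3, when Dcaf7 (−0.20), Asxl3 (0.33), Phc2 (0.25) and Ogt (0.15) lost their calls. Phc2 was also not called without control replicate 1 (0.27), control replicate 2 (0.24), siRNA 1 replicate 1 (0.24) or siRNA 1 replicate 2 (0.20). Asxl3 was not called without siRNA 1 replicate 1 (0.36), and Ogt was not called without control replicate 2 (0.16) or siRNA 1 replicate 2 (0.15). With siRNA 2, the count of 11 became 7 without control replicate 2, when Phc2 (0.26), Sfmbt2 (−0.21), Aebp2 (−0.14) and Mysm1 (0.17) lost their calls. It became 6 without control replicate 3, when Phc2 (0.27), Sfmbt2 (−0.19), Aebp2 (−0.18), Rnf2 (0.20) and Mysm1 (0.18) did. Rnf2 also lost its call without control replicate 1 (0.18), siRNA 2 replicate 1 (0.19) or siRNA 2 replicate 4 (0.18). Sfmbt2 lost it without siRNA 2 replicate 1 (−0.20) or siRNA 2 replicate 2 (−0.17), and Phc2 without siRNA 2 replicate 2 (0.19). Mysm1 lost it without control replicate 1 (0.17), siRNA 2 replicate 1 (0.15) or siRNA 2 replicate 3 (0.15). Cbx6 with either siRNA, Sfmbt2 with siRNA 1, and Cbx7, Cbx2, E2f6, Bcorl1 and Asxl3 with siRNA 2 were called whichever library was left out and under every scaling and filter run.

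RBBP4 and RBBP7 also serve in CAF-1, HAT1, SIN3, NURF and MuvB complexes. A list of 20 partners around these complexes, with the histone chaperone genes Asf1a and Asf1b among them, was tested. With siRNA 1, 1 of 20 was called (5.00%, against 4.67% of all genes): Sap130, a SIN3 subunit, fell from 149 ± 1.53 to 126 ± 6.18 CPM (−0.24, adjusted p = 0.00288). With siRNA 2, 2 were called (10.0%, against 9.72% of all genes): Hdac2, the shared deacetylase, rose (0.23, adjusted p = 0.00681), and Smarca1, the NURF ATPase, rose from 32.9 ± 1.65 to 43.1 ± 3.54 CPM (0.39, adjusted p = 0.000564). Hdac2 lost its call without control replicate 3 (0.21). With TMM factors and with DESeq2 4 of the 20 were called with siRNA 2, 2 higher and 2 lower, and without control replicate 1 there were 4, 3 higher and 1 lower. The median of the 20 was 0.0012 with siRNA 1 and 0.072 with siRNA 2. Asf1a, a histone chaperone, differed between the siRNAs (0.27 higher with siRNA 2, adjusted p = 0.00949).

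Of 40 developmental genes that are textbook Polycomb targets in ESCs, 26 were tested and the other 14 were too low. With siRNA 1, 1 of the 26 was called (3.85%, against 4.67% of all genes) and with siRNA 2, 2 were (7.69%, against 9.72%). With siRNA 1, Tbx3 was called, lower at −0.40 (adjusted p = 0.00377), and with siRNA 2 Tbx3 was lower (−0.43, adjusted p = 0.000796) and Cdkn1c higher (0.37, adjusted p = 0.0245). The summed level of the 40 genes was 245 to 252 CPM in control, 245 to 273 CPM with siRNA 1 and 219 to 256 CPM with siRNA 2. Between the siRNAs 5 genes were called (19.2%, against 7.44% of all genes): with siRNA 2, Pax6 (−0.68, adjusted p = 0.000312), Irx3 (−0.75, adjusted p = 0.0108), Meis1 (−0.38, adjusted p = 0.0267) and Meis2 (−0.28, adjusted p = 0.0249) were lower and Cdkn1c (0.40, adjusted p = 0.0111) was higher. These counts were unsteady. The siRNA 1 count became 3, with 2 higher, under exactTest, 2 without control replicate 1, control replicate 3 or siRNA 1 replicate 2, and 0 without control replicate 2, when Tbx3 (−0.31) lost its call. The count between the siRNAs became 3 with DESeq2 and without siRNA 1 replicate 1, siRNA 1 replicate 4 or siRNA 2 replicate 1, and 2 without replicate 2 of either siRNA. Cdkn1c lost its siRNA 2 call without control replicate 2 (0.29), control replicate 3 (0.36), siRNA 2 replicate 1 (0.33) or siRNA 2 replicate 2 (0.28), and with DESeq2 (0.35, adjusted p = 0.0868).

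Scml2 and Rbbp7 lie in one region of the X chromosome, and the genes around them, from Scml2 to Ctps2, were compared. The window held 8 tested genes. Of the other 6, only Gm15262, a provisional gene next to Scml2 (chrX:161287456-161366252, plus strand), was called against control; it was singled out after its values were seen. Gm15262 was at 3.17, 2.097 and 1.21 CPM in control, at 4.16, 3.49, 2.51 and 2.81 CPM with siRNA 1 and at 8.81, 5.01, 5.39 and 7.16 CPM with siRNA 2. Its siRNA 2 libraries were above all others. On the log2 scale Gm15262 gave 1.58 for siRNA 2 (SE 0.24) and 0.56 for siRNA 1 (SE 0.28, not called). These values are a description, since the gene was chosen on them. Txlng, which overlaps the end of Rbbp7, had 0.037 for siRNA 1 (adjusted p = 0.788) and 0.12 for siRNA 2 (adjusted p = 0.154). Nhs, Syap1 and Ctps2 had log2 fold changes between −0.10 and 0.094, and Reps2, at under 4 CPM, had intervals that included 0. The plot of the X chromosome window shows that Scml2 and Gm15262 stood out with siRNA 2 and Rbbp7 with both siRNAs.

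**Figure D5:**
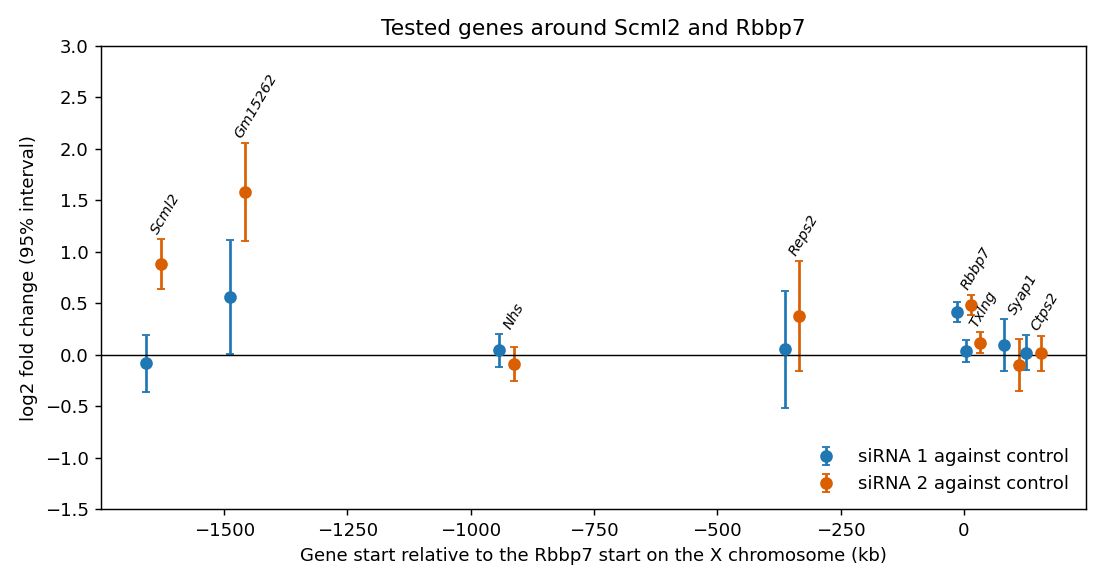
The 8 tested genes are placed by their start relative to that of Rbbp7 (kb), with the log2 fold change and 95% interval for each CMTR1 siRNA against control. With siRNA 2, Scml2 is at 0.88 and Gm15262 at 1.58, Rbbp7 is at 0.42 and 0.49 with the respective siRNAs, while the estimates of the other 5 genes lie between −0.10 and 0.38 and that of Gm15262 with siRNA 1 is 0.56.

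Markers of ESCs moved with both siRNAs. Of 8 markers tested, 6 were called lower with siRNA 1 (where 1.97% of all genes were) and 4 with siRNA 2 (where 3.55% were), and their summed level was 1659 to 1800.4 CPM in control, 1451 to 1592 CPM with siRNA 1 and 1493 to 1559 CPM with siRNA 2. Nanog had −0.57 for siRNA 1 and −0.54 for siRNA 2, while Sox2 had −0.041 (adjusted p = 0.738) and −0.12 (adjusted p = 0.125), and no marker was at 0. Of 6 markers of 2-cell-like cells, 5 were tested, and 3 were called higher with siRNA 2 (Zscan4d, Zscan4f and Usp17la), where 6.17% of all genes were and where DESeq2 called 1 of the 5. Their summed levels were 17.1 to 17.6 CPM in control, 15.1 to 20.1 CPM with siRNA 1 and 25.6 to 33.1 CPM with siRNA 2. Fibroblast markers (5 of 7 tested) summed to 22.7 to 29.2, 26.6 to 28.9 and 34.1 to 38.3 CPM. With siRNA 2 Col1a1 (0.75) and Dcn (1.13) were called higher and Col3a1 (−1.42) lower, Col1a2 (0.32, adjusted p = 0.124) and Pdgfrb (−0.12, adjusted p = 0.794) were not called, and DESeq2 called 1 of the 5. Lum and Postn averaged at most 0.0653 CPM in any group. Primitive endoderm markers (6 of 7 tested) summed to 55.6 to 73.9, 51.2 to 70.0 and 51.2 to 61.2 CPM. None of these 6 was called by edgeR or DESeq2 against control, and 0 had an unadjusted p under 0.05 with either siRNA. The summed ESC markers were below the control range in all 8 siRNA libraries, like Epop and Suz12 and opposite to Rbbp7. With siRNA 2, the summed 2-cell-like markers and the summed fibroblast markers were above all other libraries, like Scml2, although single fibroblast markers went both ways. Their part in those values was not tested.

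By the likeness of their log2 CPM over the 11 libraries, among the 10928 genes that averaged 2 or more on that scale, those closest to Epop were Klf5 (Pearson r = 0.969), Atf4 (0.962), Klf2 (0.943), Cbr3 (0.940) and Cipc (0.932). Klf2 and Klf5 encode transcription factors of the ESC network and Atf4 one of the stress response. Those closest to Rbbp7 were Zwint (0.975), Zfp248 (0.972), H2afy2 (0.967), Colec12 (0.960) and Rfc1 (0.954), which include genes for a kinetochore protein, a macroH2A histone and the large subunit of a clamp loader. The points share the 11 libraries and their 3 groups, so genes that differ between the groups in the same way rank high. As a description, Klf2 was at −0.58 with siRNA 1 and −0.38 with siRNA 2, and Zwint at 0.41 and 0.40.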

How the data were processed

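The authors deposited counts, whole numbers of reads for each of 54838 Ensembl genes, for 11 RNA-seq libraries (3 control siRNA, 4 CMTR1 siRNA 1, 4 CMTR1 siRNA 2, grouped by the labels). Per the methods and the labels, FastQC, Cutadapt and STAR (GRCm38/mm10) were used to check, trim and align reads, Picard to remove PCR duplicates and featureCounts to count. Versions, and whether counting used strand, are not given in the sources used here. Closing lines in 10 of the 11 files, which look like those of HTSeq-count (5314618 to 6998875 reads per library in no gene and 137308 to 164565 ambiguous), were left out of library sizes and tests. Because the read depth is finite, counting error is widest for Scml2 and Phf19.

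Symbols, exon lengths and overlaps came from GENCODE M21 (54723 identifiers matched). Genes with more than 1 CPM in at least 4 libraries entered the quasi-likelihood test of edgeR 4.0.16 (R 4.3.3), fitted over the 3 groups, with total counts as library sizes and Benjamini-Hochberg adjustment over all 16073 genes. Intervals are the estimate ± 1.96 SE. Alternatives were TMM factors, library sizes without Gm26917, 2 other filters, DESeq2 1.42.0, edgeR's exactTest, a fit of 2 groups, replicate number as a block, another length for levels, and each library left out in turn. Levels per kilobase divide CPM by union exon length. The code was tested on simulated counts of an siRNA 1 comparison, where 155 genes were called and 11 of these were unchanged. Some genes simulated with a change were not called, so a gene not called may still have changed. Figures were drawn with matplotlib 3.10.9.

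The members, gene lists and markers were chosen with earlier results of these data known. The text names the 10 genes, Cmtr1, the called genes of each Polycomb list (at most 6 with the lowest FDR per list and comparison), genes called between the siRNAs where they bear on a list, and the 5 genes with the highest r to Epop and to Rbbp7. Promoter windows came from RefSeq.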

Additional observations from a re-analysis of the deposited data

Results flagged for a closer look

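Among the 10 genes and the genes named from the Polycomb, RBBP4 and RBBP7 partner and target lists as called against control, 11 also differed between CMTR1 siRNA 2 and siRNA 1 in a test of that difference over all 16073 genes (edgeR's quasi-likelihood test, siRNA 2 less siRNA 1, log2 scale). Epop was higher with siRNA 2 by 0.23 (−0.46 with siRNA 1 and −0.23 with siRNA 2 against control), and Scml2 by 0.97 (−0.084 and 0.88). Both were chosen on their values, so these are descriptions. The others were chosen for a call against control, which shares libraries with this comparison and makes such a difference more likely. Their adjusted p-values do not allow for that choice. Over all genes tested 7.44% were called between the siRNAs, and nothing is read from the count of 11. Among the other Polycomb genes, Dcaf7 differed by 0.30 (adjusted p = 0.000134), Rnf2 by 0.26 (adjusted p = 0.00168), E2f6 by 0.31 (adjusted p = 0.00200), Bcorl1 by 0.29 (adjusted p = 0.00795) and Cbx7 by −0.14 (adjusted p = 0.0353). Cbx7 lost this call without siRNA 1 replicate 1 (−0.13), replicate 2 (−0.14) or replicate 4 (−0.14) and without siRNA 2 replicate 1 (−0.11) or replicate 2 (−0.14). Partners of RBBP4 and RBBP7 in other complexes gave 0.55 for Smarca1 (adjusted p = 1.01e-06), 0.32 for Sap130 (adjusted p = 1.44e-05) and 0.22 for Hdac2 (adjusted p = 0.00664). The Polycomb target Cdkn1c differed by 0.40 (adjusted p = 0.0111), and lost this call without siRNA 1 replicate 4 (0.35) or siRNA 2 replicate 2 (0.30). No library of a group of 4 stood apart from its group in any of the 22 sets checked for the 10 genes and the Rbbp7 to Rbbp4 ratio.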

How the results depend on the processing

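The signs of Epop and Rbbp7 with both siRNAs and of Scml2 with siRNA 2 were the same under every alternative run. With DESeq2, 958 genes were called with siRNA 2 and 740 between the siRNAs, against 1562 and 1196. Suz12 was called with siRNA 1 in a fit of only the compared groups (−0.155), with exactTest (−0.155) and with replicate number as a block (−0.188). Ezh2 was called with siRNA 2 with TMM factors (−0.160), library sizes without Gm26917 (−0.142) and DESeq2 (−0.164). Rbbp4 with siRNA 2 turned to −0.0200 with TMM factors, −0.00233 without Gm26917, −0.00770 with the block and −0.0242 with DESeq2. Hdac2 with siRNA 1 turned to −0.00970 (TMM factors), −0.00802 (block) and −0.0136 (DESeq2), and Cdkn1c to 0.0437 (block). The causes were not tested. With either other length, 4 of 10 level ranks were kept, and the mean Rbbp7 to Rbbp4 ratios were 0.927, 1.28 and 1.29 (longest transcript) or 0.876, 1.21 and 1.22 (longest coding transcript).

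Same-numbered libraries did not deviate together (mean r 0.01 over 10 pairs, −0.003 over 30 other pairs). The labels do not say whether the numbers pair libraries, and these correlations cannot settle it. The block gave 840, 1486 and 1242 called genes for siRNA 1, siRNA 2 and their difference. With it Ogt (siRNA 1, adjusted p = 0.0597) and Mysm1 (siRNA 2, adjusted p = 0.0569) were not called, and 3 Polycomb target genes were called with siRNA 1.

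Leaving out single libraries gave 355 to 850 called genes with siRNA 1 (355 without control replicate 2, 447 without control replicate 3, 424 without siRNA 1 replicate 2). With siRNA 2 it gave 807 to 1667 (914 without control replicate 2, 807 without control replicate 3, 1015 without siRNA 2 replicate 1). Between the siRNAs it gave 724 to 1374 (738 and 724 without siRNA 1 replicate 1 or 2, 757 without siRNA 2 replicate 1). Calls among the other Polycomb genes ranged from 2 to 7 and from 6 to 12, those among the 10 genes with siRNA 1 from 2 to 4 (4 without siRNA 1 replicate 3), and ranks kept from 6 to 10. The log2 ranges with siRNA 1 were −0.189 to −0.110 for Suz12, −0.185 to −0.0871 for Mtf2, −0.201 to 0.0427 for Scml2, −0.137 to 0.0796 for Cdkn1c and −0.0363 to 0.0449 for Hdac2. With siRNA 2 they were −0.217 to −0.132 for Suz12, −0.0225 to 0.0324 for Rbbp4, −0.0121 to 0.0106 for Jarid2 and −0.0559 to 0.0337 for Mtf2. Between the siRNAs they were −0.0694 to 0.0232 for Suz12, 0.0758 to 0.181 for Mtf2, −0.0645 to 0.0705 for Phc2 and −0.0932 to 0.0799 for Tbx3.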
